A study of Homo sapiens with 36 samples.

Results

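The genes of the collagen chains were taken as the protein-coding genes of GENCODE release 44 whose symbol reads COL, a number, A and a number. There were 44 such genes of 20033 protein-coding genes. A peak was assigned to a gene when its summit lay in the gene body or within 20 kb of it. The peaks came from Cut&Run, in which an antibody tethers a nuclease to chromatin and the released DNA fragments are sequenced. An antibody against the V5 tag was used in 6 lines of 786-O, a human clear cell renal carcinoma line. These cells lack functional VHL, so that endogenous HIF-2α persisted in normal oxygen in every line. Per the paper they also lack functional HIF-1α, since a mutation truncates it. WT cells carried no tag and gave the background of the antibody. The HIF-2α KIN line was a clone with a V5 and Halo tag on both copies of the endogenous HIF-2α gene. The remaining lines stably expressed a V5- and Halo-tagged protein from the weak L30 promoter and still held untagged endogenous HIF-2α. These proteins were HIF-2α, HIF-1α, HIF-2α/1α (residues 1 to 365 of HIF-2α joined to residues 364 to 826 of HIF-1α) and HIF-1α/2α (residues 1 to 363 of HIF-1α joined to residues 366 to 870 of HIF-2α). The N-terminal part binds DNA and HIF-1β (DBD) and the C-terminal part is the intrinsically disordered region (IDR). Each line had 3 anti-V5 libraries, named as biological replicates in the labels, so 15 libraries were tagged, 12 of them exogenous.

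Collagens are triple helices of 3 chains that form most of the extracellular scaffold of animal tissues. Fibrillar collagens (types I, II, III, V, XI, XXIV and XXVII) give tensile strength, type IV collagen builds the sheet of basement membranes, and the remaining types form networks, beaded filaments, anchoring fibrils or linkers, or span the cell membrane. The chains are hydroxylated on proline and lysine by oxygen-dependent enzymes before they fold, and several of these enzymes are known targets of the hypoxia-inducible factors (HIFs). HIF-1α and HIF-2α each pair with HIF-1β and recognize a short motif, the hypoxia response element (HRE).

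The sequences around the summits of 11 of the 20 collagen regions called in at least 12 tagged libraries are shown, to set sites that hold motif letters beside sites that hold none. The choice was made with the motif matches known: the first 9 hold a match, and the last 2, upstream of COL5A1 nearer the gene and upstream of COL6A3, hold none. Each line gives 151 bp of the plus strand of hg38, 5′ to 3′, centred on the summit of the best-ranked peak. Capitals mark HRE letters (ACGTG or GCGTG) and AP-1 letters (TGACTCA or TGAGTCA) on either strand, and CACGTG counts as 2 HRE matches.
COL5A1 upstream, chr9:134624979-134625129: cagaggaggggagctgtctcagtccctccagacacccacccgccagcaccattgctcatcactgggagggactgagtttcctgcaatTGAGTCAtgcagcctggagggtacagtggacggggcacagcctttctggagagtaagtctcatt
COL8A1 intron 1, chr3:99659255-99659405: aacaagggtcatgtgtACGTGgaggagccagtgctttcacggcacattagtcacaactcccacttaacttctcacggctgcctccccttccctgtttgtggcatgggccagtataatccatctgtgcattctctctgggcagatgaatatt
COL7A1 window, PFKFB4 promoter, chr3:48557196-48557346: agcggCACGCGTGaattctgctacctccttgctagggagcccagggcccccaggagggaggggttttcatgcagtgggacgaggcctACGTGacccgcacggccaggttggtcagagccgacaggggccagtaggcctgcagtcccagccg
COL1A1 upstream, chr17:50211042-50211192: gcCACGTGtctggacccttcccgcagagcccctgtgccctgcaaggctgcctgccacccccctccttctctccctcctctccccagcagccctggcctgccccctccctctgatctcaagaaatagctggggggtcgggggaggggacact
COL1A1 downstream, chr17:50178423-50178573: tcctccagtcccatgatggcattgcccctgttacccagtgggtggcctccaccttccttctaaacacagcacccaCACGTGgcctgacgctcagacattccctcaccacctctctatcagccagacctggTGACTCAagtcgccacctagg
COL27A1 intron 1, chr9:114156549-114156699: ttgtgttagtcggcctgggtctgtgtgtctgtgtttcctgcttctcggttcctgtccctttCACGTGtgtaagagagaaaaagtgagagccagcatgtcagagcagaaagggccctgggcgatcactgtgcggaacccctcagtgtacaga
COL18A1 intron 2, chr21:45439417-45439567: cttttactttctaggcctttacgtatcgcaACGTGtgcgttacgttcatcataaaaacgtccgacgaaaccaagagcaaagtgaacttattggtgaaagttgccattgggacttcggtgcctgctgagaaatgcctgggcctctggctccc
COL4A2 intron 3, first, chr13:110341116-110341266: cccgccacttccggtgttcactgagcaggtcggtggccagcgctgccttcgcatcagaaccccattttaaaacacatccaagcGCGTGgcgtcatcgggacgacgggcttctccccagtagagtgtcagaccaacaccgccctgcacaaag
COL4A2 intron 3, next, chr13:110348183-110348333: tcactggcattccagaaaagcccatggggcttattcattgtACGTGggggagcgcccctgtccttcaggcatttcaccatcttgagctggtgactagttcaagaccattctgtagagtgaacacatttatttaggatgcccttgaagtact
COL5A1 upstream, nearer the gene, chr9:134637810-134637960: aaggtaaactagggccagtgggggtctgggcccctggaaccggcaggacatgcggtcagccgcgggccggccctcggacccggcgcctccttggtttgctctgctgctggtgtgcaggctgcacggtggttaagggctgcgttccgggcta
COL6A3 upstream, chr2:237432711-237432861: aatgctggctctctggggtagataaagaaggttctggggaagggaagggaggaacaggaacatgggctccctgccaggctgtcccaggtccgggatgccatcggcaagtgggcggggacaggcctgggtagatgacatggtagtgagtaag
In this window, 37 of the 91 collagen regions (40.7%) held an HRE and 20 (22.0%) an AP-1 motif, beside 35.3% and 12.3% of all 25783 regions. A match describes letters in the sequence and no occupancy by a given factor.

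A peak in at least 1 tagged library was found at 36 of the 44 collagen genes (81.8%), beside a background of 81.6% of all protein-coding genes. No peak in any tagged library was called near COL1A2 (the second chain of type I collagen), COL2A1 (cartilage fibrils), COL11A1 (a chain that nucleates cartilage fibrils), COL9A1 and COL9A2 (linkers on cartilage fibrils), COL12A1 and COL19A1 (fibril-associated chains) or COL25A1 (a transmembrane collagen). By structural class, the count with a tagged peak was 8 of 11 fibrillar genes, 6 of 6 basement membrane genes, 3 of 3 short-chain network genes and 5 of 5 beaded-filament genes. It was 6 of 10 fibril-associated genes (FACIT), 3 of 4 transmembrane genes, 2 of 2 multiplexins, 1 of 1 anchoring fibril gene and 2 of 2 other genes. A gene without a peak was not called at this depth, and this does not show that it was unbound.

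In WT, peaks lay near 11.4%, 47.7% and 9.09% of the collagen genes in replicates 1 to 3, beside 1.51%, 30.8% and 3.58% of all genes. In KIN the shares were 25.0%, 45.5% and 31.8%, and in HIF-2α they were 22.7%, 65.9% and 25.0%. The HIF-2α/1α libraries gave 50.0%, 56.8% and 45.5%, the HIF-1α libraries 54.5%, 56.8% and 52.3%, and the HIF-1α/2α libraries 43.2%, 47.7% and 36.4%. The 3 libraries of HIF-1α lay closest together, and HIF-2α replicate 2 stood far above replicates 1 and 3 of its line. For all genes the shares ran from 17.4% to 60.6% in the tagged libraries. Peak lists ranged from 3984 to 20808 peaks in tagged libraries and held 392, 9508 and 743 peaks in WT, and the depth inferred from them was 0.241 to 0.625 fragments per base. The share of collagen genes thus followed that of all genes in the tagged libraries, while list length and line cannot be told apart. WT replicate 2 stood apart from the other WT lists, and its part in any comparison is given beside the results.

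**Figure D1:**
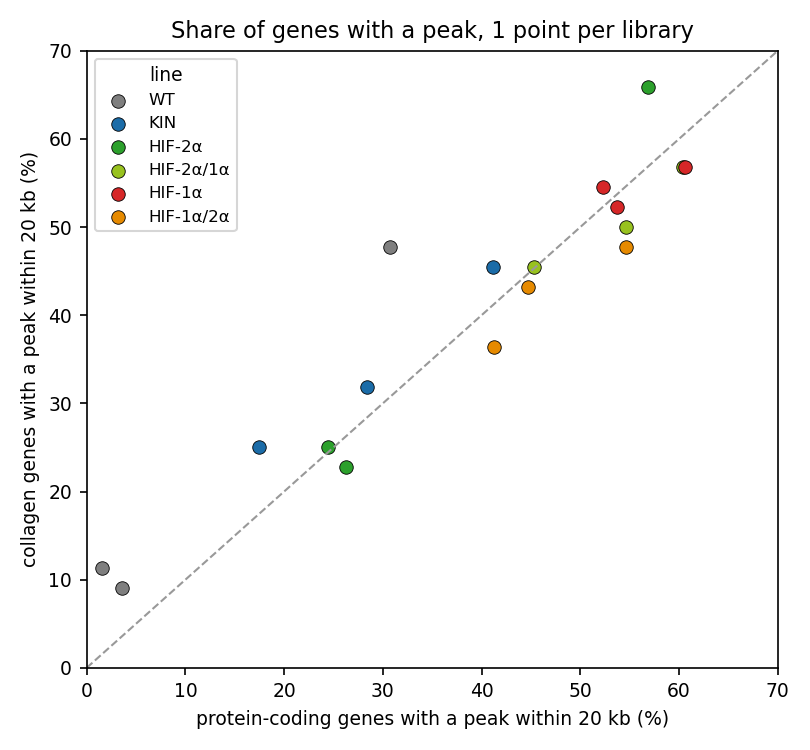
Share of the 44 collagen genes with a peak within 20 kb (vertical axis, percent) against the share of all 20033 protein-coding genes (horizontal axis, percent), with 1 point per library, coloured by line. The tagged libraries lie near the line of equal shares, and the 3 WT points lie above it, with WT replicate 2 at 47.7% of collagen genes and 30.8% of all genes.

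Calls in at least 2 of 3 libraries were counted per line. In WT they covered 7 collagen genes (15.9%), beside a background of 3.54% of all genes. In KIN there were 12 genes (27.3%, background 26.0%) and in HIF-2α 13 (29.5%, background 31.0%). In HIF-2α/1α there were 23 genes (52.3%, background 53.3%), in HIF-1α 24 (54.5%, background 55.3%) and for HIF-1α/2α 21 (47.7%, background 45.3%). In the tagged lines the collagen share lay close to the background, and in WT it lay above it. Collagen genes are long, with a median of 145 kb against 27.5 kb for all genes. Across genes, Spearman's rho of length with the number of tagged libraries was −0.19 over the 44 collagen genes and 0.21 over all 20033 genes, given as a description since genes are not replicates. Per megabase of window, collagen genes held 0.735 to 1.18 times the peak density of all gene windows in the tagged libraries, and 4.21, 1.21 and 1.47 times in the 3 WT libraries, which rest on 5, 39 and 4 collagen peaks.

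**Figure D2:**
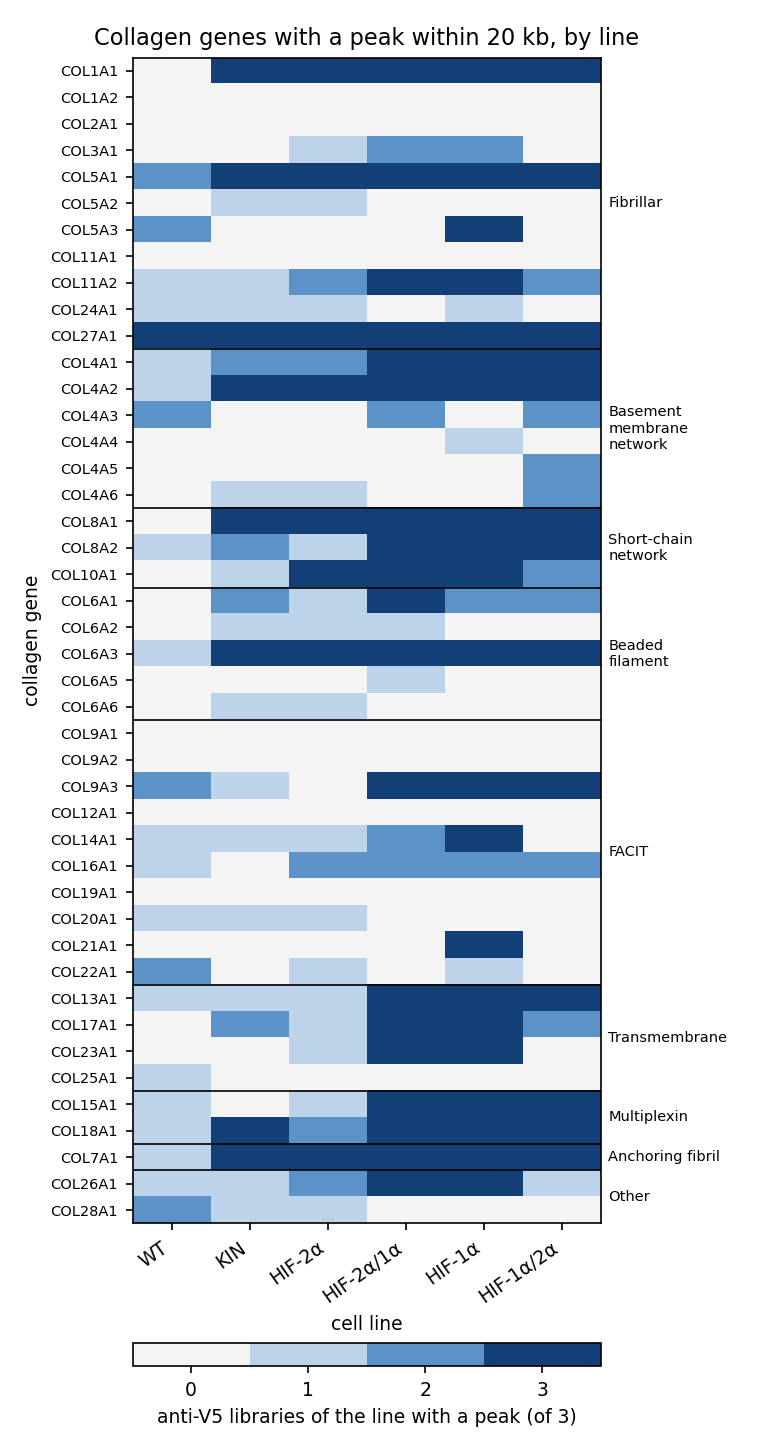
Number of libraries of each line (columns, 3 libraries each) with a peak within 20 kb of each collagen gene, given by colour. Rows are ordered by structural class. The 7 genes COL1A1, COL4A2, COL5A1, COL6A3, COL7A1, COL8A1 and COL27A1 were called in all 15 tagged libraries. COL27A1 was also called in all 3 WT libraries.

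Among the fibrillar genes, COL1A1 (the main chain of type I collagen) was called in 15 of 15 tagged libraries and in 0 of 3 WT libraries. COL5A1 (the chain of type V collagen that sets fibril diameter) was called in 15 tagged and 2 WT libraries, and COL27A1 (a fibrillar chain of cartilage) in all 18 libraries. COL11A2 was called in 11 tagged libraries and 1 WT library, COL3A1 in 5 and 0, COL24A1 in 3 and 1, COL5A3 in 3 and 2, and COL5A2 in 2 tagged libraries. The fibrillar genes thus ranged from every library to none, and both chains of type I collagen stood at opposite ends.

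The basement membrane genes lie in head-to-head pairs that share a start site region. COL4A2 was called in 15 tagged libraries and COL4A1 in 13, each with 1 WT library. COL4A3 was called in 4 tagged and 2 WT libraries, and COL4A4 in 1 tagged library. COL4A6 was called in 4 tagged libraries, and COL4A5 in 2, both of HIF-1α/2α. The ubiquitous chains COL4A1 and COL4A2 were the recurrent ones, and the chains of the glomerular and other specialised membranes were not.

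Of the network, filament and anchoring genes, COL8A1 (endothelial and corneal networks) was called in 15 tagged libraries and 0 WT libraries. COL7A1 (anchoring fibrils under epithelia) and COL6A3 (a chain of the beaded filaments) were each called in 15 tagged libraries and 1 WT library. COL10A1 (hypertrophic cartilage) and COL8A2 were called in 12 tagged libraries each, and COL6A1 in 10. Among the multiplexins of basement membrane zones, COL18A1 (the source of endostatin) was called in 14 tagged libraries and COL15A1 in 10. Among the transmembrane genes COL13A1 and COL17A1 were called in 11 each and COL23A1 in 7. Of the fibril-associated genes, COL9A3 was called in 10 and COL16A1 in 8, and the remaining ones in 7 or fewer.

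Over all 44 collagens, 7 genes (15.9%) had a peak in all 15 tagged libraries, beside 10.2% of all genes. The comparison of tagged with WT libraries asks which calls exceed the background of the antibody. In a Fisher's exact test of 15 against 3 libraries, two-sided, with Benjamini-Hochberg adjustment over 14848 genes, 2 of the 34 collagen genes tested were called more often in tagged lines, beside 5.42% of all genes tested. They were COL1A1 and COL8A1, each in 15 of 15 tagged and 0 of 3 WT libraries (exact p = 0.001225, adjusted p = 0.0226, the smallest this design gave). None was called less often. At an unadjusted p under 0.05, 7 collagen genes and 3964 of all genes were called more often. With any 1 WT library left out, no gene in the genome passed, and the adjusted p of COL1A1 and COL8A1 was 0.0625 without WT replicate 2. COL1A1 also lost its call when only the gene body was counted, since its recurrent sites lie outside the gene (difference in the share of libraries 0.267, adjusted p = 1).

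The exogenous lines form a factorial design, which asks whether the calls at a gene follow the IDR or the DBD. For each, 6 against 6 libraries were compared in the same way. No collagen gene differed in calls by the IDR or by the DBD, beside 0.0% of all genes for each. The smallest exact p that 6 against 6 libraries gave was 0.002165, with an adjusted p of 1. At this p a gene could pass only if many other genes reached it too, so the test says little about a single gene. At an unadjusted p under 0.05, the IDR of HIF-2α went with fewer calls at 1 collagen gene, COL23A1 (a transmembrane collagen; exact p = 0.01515, adjusted p = 1), and the DBD with no collagen gene. Over all genes, 5 passed that threshold with more and 191 with fewer calls for the IDR, and 9 and 30 did so for the DBD. Lists held 12371 to 20808 peaks with the IDR of HIF-1α and 5906 to 20651 with that of HIF-2α. List length and IDR thus cannot be told apart in these calls. COL23A1 was called in 3 of 3 HIF-1α and 3 of 3 HIF-2α/1α libraries, in 1 of 3 HIF-2α libraries and in none of HIF-1α/2α, KIN or WT. Its region chr5:178405138-178405469, in intron 2, was called in all 3 HIF-1α libraries and in no other library, and it was the only collagen region called in all libraries of 1 tagged line and in no other tagged line.

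Peaks that overlapped by at least 1 bp were merged over the 18 lists, and those supported by 2 or more libraries were kept. The collagen windows held 91 of these 25783 regions, at 26 genes, and 18 genes had none. COL4A2 had the most regions (19), followed by COL27A1 (9) and by COL4A1, COL5A1, COL7A1 and COL8A1 (5 each). Introns held 53 regions, the 20 kb upstream 16, the 20 kb downstream 12, and the promoter (within 1 kb of a start site of the gene) 6. Coding exons held 3 regions and an exon with UTR sequence held 1. The nearest start site of a protein-coding gene belonged to the collagen gene itself for 67 regions and to another gene for 24. Of the latter, 10 lay in the promoter of that other gene. With these, 17.6% of the collagen regions lay in a promoter, beside 28.4% of all regions.

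**Figure D3:**
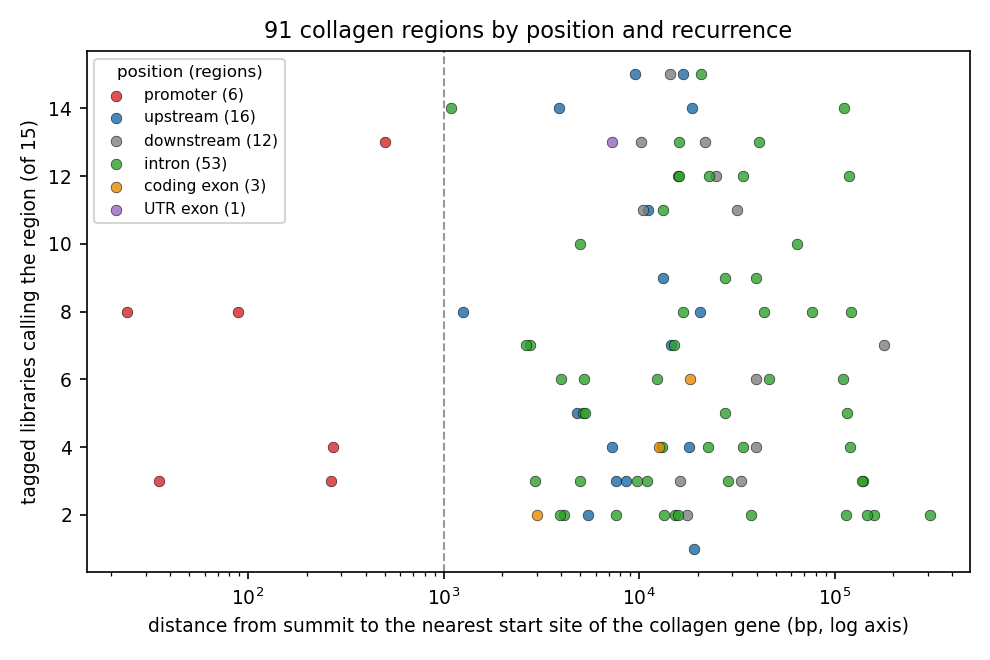
The 91 collagen regions by distance from the summit to the nearest start site of the collagen gene (horizontal axis, bp, log scale) and by the number of tagged libraries that called them (vertical axis, of 15), with colour for the position. The dashed line marks 1 kb, and most regions called in 12 or more libraries lie well beyond it.

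Of the 91 regions, 20 (22.0%) were called in at least 12 tagged libraries, beside a background of 17.7% of all regions. These lay at 10 genes, COL1A1, COL4A1, COL4A2, COL5A1, COL6A3, COL7A1, COL8A1, COL10A1, COL18A1 and COL27A1, and 18 of them were called in at most 1 WT library. WT libraries called 19 of the 91 regions (20.9%), beside 14.3% of all regions, and each of these 19 was in the list of WT replicate 2. An intron 37 region of COL27A1 was called in all 3 WT libraries, and an upstream region of COL5A1 and an intron 10 region of COL9A3 in 2. At least 2 WT libraries thus called 3.30% of the collagen regions, beside 1.93% of all regions. At least 2 of 3 libraries called 26 collagen regions in KIN and 26 in HIF-2α, against 57 in HIF-2α/1α, 52 for HIF-1α and 43 in HIF-1α/2α. The lines with shorter lists called fewer of them. The same shares over all regions were not computed. Over all genes, calls in at least 2 of 3 libraries also differed by line, from 26.0% in KIN to 55.3% in HIF-1α. The region counts are thus not read as particular to collagen regions.

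Tagged and WT calls were then compared for each region (Fisher's exact test, two-sided, Benjamini-Hochberg over 25783 regions). Of the collagen regions 3 passed, beside 4.66% of all regions. They were an intron 1 region of COL8A1, an upstream region of COL1A1, and a region of the COL7A1 window in the promoter of the neighbouring gene PFKFB4. Each had a call in all 15 tagged libraries and in 0 of the 3 WT ones (exact p = 0.0012255, adjusted p = 0.0263). At an unadjusted p under 0.05, 17 collagen regions and 4631 of all regions were called more often in tagged libraries. Without any 1 of the WT libraries no region in the genome passed.

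The region of COL8A1, chr3:99658243-99660419, lay in intron 1, with the summit 20708 bp from the nearest start site of the gene and an ACGTG 57 bp to the left of the summit. Its fold enrichment over local background, as deposited, was 10.2, 29.1 and 14.0 in KIN and 30.8, 75.9 and 22.1 in HIF-2α. It was 56.7, 80.5 and 14.2 in HIF-2α/1α, 32.9, 36.9 and 15.2 for HIF-1α, and 26.2, 44.3 and 25.7 in HIF-1α/2α. All values exceeded the median fold of their list (4.81 to 8.24 over the 18 lists), and the ranges of the lines overlapped. When peaks of a list were ranked by fold, the region stood at a median of the top 4.67% (range 1.00% to 21.3%) over the tagged lists. A further region in intron 1, chr3:99651584-99652055, was called in 11 tagged libraries at the median top 56.4%.

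COL5A1 held the highest-ranked collagen site. It spans chr9:134623773-134625930, upstream of the gene, with the summit 16749 bp from the start site and a TGAGTCA 15 bp to the right of it. The fold was 15.7, 64.7 and 10.3 in KIN, 24.1, 48.4 and 26.9 in HIF-2α, and 44.8, 51.3 and 36.6 in HIF-2α/1α. It was 20.7, 40.8 and 26.5 in HIF-1α, 34.4, 46.9 and 22.0 for HIF-1α/2α, and 6.13 in WT replicate 2, the only WT library that called it. Every tagged value lay above the WT value, and the lines overlapped. The median rank was the top 3.57% (0.879% to 24.6%). With 15 of 15 tagged and 1 of 3 WT libraries the region did not pass the test of calls (exact p = 0.0196, adjusted p = 0.166).

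Another COL5A1 region, chr9:134637297-134638588, lay 3918 bp upstream of the start site and held neither motif in its central 151 bp. It was called in 14 tagged libraries and in WT replicates 2 and 3, with a fold of 6.05 and 3.90 in WT. The tagged folds were 7.31 and 5.62 in KIN replicates 2 and 3, 3.75, 8.57 and 7.65 in HIF-2α, and 12.1, 10.4 and 18.3 in HIF-2α/1α. They were 10.6, 20.3 and 9.62 for HIF-1α and 7.31, 11.9 and 4.31 in HIF-1α/2α. Both WT values lay inside the range of the HIF-2α line.

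The COL1A1 region that passed, chr17:50209681-50211730, lay 9486 bp upstream of the start site, with a CACGTG at the left edge of the printed window. Its fold was 3.27, 4.61 and 3.59 in KIN, 7.78, 8.36 and 11.4 in HIF-2α, and 10.5, 10.1 and 11.2 in HIF-2α/1α. It was 14.6, 13.2 and 17.0 for HIF-1α and 7.35, 2.99 and 3.88 in HIF-1α/2α. HIF-1α was the highest line in all 3 libraries, and KIN and HIF-1α/2α were the lowest. The region ranked at a median of the top 40.6% (12.8% to 99.7%), far below the sites of COL5A1 and COL8A1, although all of them were called in every tagged library.

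Another COL1A1 region, chr17:50177428-50178919, lay downstream of the gene, with SGCA as the nearest start site at 12457 bp, and had a CACGTG within 3 bp of the summit. It was called in 13 tagged and 0 WT libraries. The fold was 8.59 and 3.40 in KIN replicates 2 and 3, 10.4 and 3.51 in HIF-2α replicates 2 and 3, and 6.29, 12.2 and 7.92 in HIF-2α/1α. It was 8.98, 34.4 and 16.3 for HIF-1α and 3.90, 10.9 and 5.78 in HIF-1α/2α. HIF-1α replicate 2 stood highest, and the lines overlapped.

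The window of COL7A1 held 4 recurrent regions, of which 2 lay in the promoter of the neighbouring gene PFKFB4, which encodes a regulator of glycolysis. The strongest, chr3:48556818-48558736, had its summit 254 bp from the PFKFB4 start site and 14355 bp from that of COL7A1. Its fold was 7.98, 38.5 and 33.8 in KIN, 30.9, 28.0 and 11.7 in HIF-2α and 29.0, 42.7 and 24.2 in HIF-2α/1α. It was 21.1, 63.5 and 24.8 for HIF-1α and 36.8, 42.5 and 16.1 in HIF-1α/2α. The ranges of the lines overlapped, and the median rank was the top 5.73%. The region chr3:48560290-48562265 had its summit 247 bp from a PFKFB4 start site and was called in 13 tagged libraries at the median top 44.5%. The region chr3:48563505-48564610 covered the last exon of COL7A1, exon 119, which includes UTR sequence, with the start site of UCN2 550 bp from the summit, and was called in 13 tagged libraries with folds from 4.71 to 19.4. Only the fourth region, chr3:48595302-48596289, lay in the promoter of COL7A1 itself, 500 bp from the start site. It was called in 13 tagged libraries and in WT replicate 2, at the median top 76.1%.

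COL27A1 had 3 recurrent regions. The one in intron 1, chr9:114155393-114157361, lay 1087 bp from the start site, was called in 14 tagged and 0 WT libraries, and had a CACGTG within 12 bp of the summit. Its fold was 16.1, 15.5 and 18.3 in KIN, 23.0, 52.7 and 12.9 in HIF-2α and 19.3, 26.1 and 16.2 in HIF-2α/1α. It was 12.8, 25.9 and 12.3 for HIF-1α and 32.4 and 8.11 in HIF-1α/2α replicates 2 and 3. The lines overlapped, and the median rank was the top 10.4%. In contrast, the region of intron 37, chr9:114278730-114279535, had folds of 4.85, 17.2 and 9.20 in WT, beside 5.82 to 41.9 in 14 tagged libraries. It held neither motif in its central 151 bp, and WT and tagged values overlapped. The region of intron 41, chr9:114285108-114286041, was called in 12 tagged libraries with folds from 7.48 to 21.7, and in WT replicate 2 at 11.1.

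At COL18A1 all 3 recurrent regions lay in intron 2 and none was called in WT. The best ranked, chr21:45438792-45439769, 16030 bp from the nearest start site of the gene, had an ACGTG 43 bp to the left of the summit. Its fold was 10.4, 6.29 and 7.24 in KIN, 15.5 in HIF-2α replicate 2 alone, and 17.6, 16.3 and 13.3 in HIF-2α/1α. It was 20.4, 51.3 and 23.0 for HIF-1α and 17.8, 31.9 and 18.3 in HIF-1α/2α. Values were lowest in KIN, and HIF-2α replicates 1 and 3 lacked a call. The other two, chr21:45420633-45421630 and chr21:45427411-45428191, were called in 12 tagged libraries each, with folds from 4.83 to 13.6 and from 3.42 to 14.5.

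The COL4A1 and COL4A2 locus held 3 recurrent regions in intron 3 of COL4A2. The region chr13:110323174-110323790, 16034 bp from the nearest start site of COL4A2, also fell within 20 kb of COL4A1 and was called in 12 tagged libraries with folds from 3.66 to 15.7. The region chr13:110340675-110341773 was called in 12 tagged libraries with folds from 3.50 to 22.8, and the region chr13:110347542-110348658 in 13 with folds from 4.06 to 19.8, and in WT replicate 2 at 4.61. Both held an HRE in the printed window. None of these regions passed the test of calls (adjusted p of at least 0.166). COL4A3 had 1 consensus region, at the promoter of the neighbouring gene MFF and called in 2 libraries of HIF-2α/1α, and COL4A4, COL4A5 and COL4A6 had none.

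The 2 remaining recurrent regions were those of COL10A1 and COL6A3. In the COL10A1 window, chr6:116100420-116101848 lay 421 bp from the start site of NT5DC1 and downstream of COL10A1. It was called in 12 tagged and 0 WT libraries, with a fold of 4.92 in KIN replicate 2, 9.73, 4.80 and 6.30 in HIF-2α, and 28.1, 23.0 and 10.9 in HIF-2α/1α. It was 10.5, 14.3 and 8.11 for HIF-1α and 9.22 and 8.36 in HIF-1α/2α replicates 1 and 2. All values of HIF-2α/1α lay above those of HIF-2α. The COL6A3 region, chr2:237431538-237433555, lay 18579 bp upstream of the start site and was called in 14 tagged libraries with folds from 3.23 to 11.4, and in WT replicate 2 at 6.19, inside that range.

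**Figure D4:**
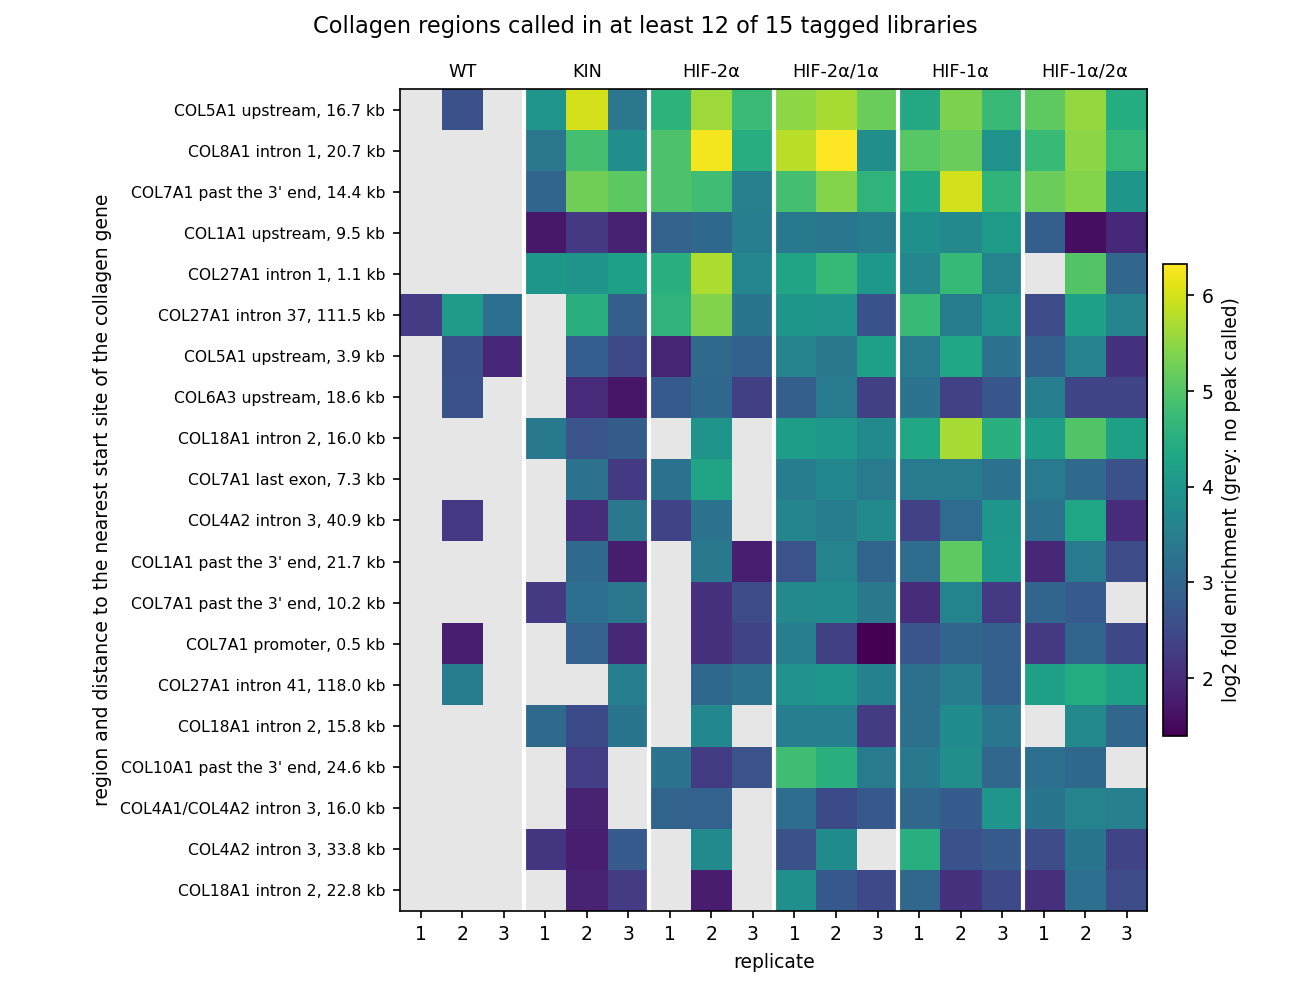
Log2 fold enrichment over local background (colour) of the 20 collagen regions called in at least 12 of 15 tagged libraries (rows, with the distance to the nearest start site of the gene), for 3 replicates of each line (columns). Grey cells are libraries without a call, and the upper rows of COL5A1 and COL8A1 hold folds up to 64.7 and 80.5.

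Collagen peaks spread over the whole rank range of their lists. The 15 tagged lists held 732 collagen peaks, 15 to 80 per list, and the median rank by fold was between the top 41.8% and the top 65.5% of the list. Of the 732 peaks, 62 (8.47%) were in the top 10% of their list. Over the regions, the median fold was 7.14 for collagen and 7.24 for all regions. Within 50 bp of the summit an HRE was found at 19 collagen regions (20.9%), beside 24.1% of all regions, and at 15.9% and 14.2% of flanks 1 kb away. The excess over flanks was 4.95 percentage points for collagen and 9.90 for all regions. The AP-1 letters were found at 11 collagen regions (12.1%, flanks 1.10%), beside 8.27% of all regions (flanks 1.74%). RefSeq promoters (GRCh38.p14, 250 bases before to 50 after the start) were matched for 32 collagen genes, of which 17 (53.1%) held an HRE in at least 1 promoter, beside 48.4% of all promoters. A gene with several promoters had more chances to match.

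Signal strength was compared across the exogenous lines, to ask whether occupancy at shared sites follows the IDR or the DBD. In all 12 exogenous libraries 7 collagen regions were called (7.69%, background 10.5%). They were fitted with all other such regions in limma, on log2 fold centred on the median of each library, with Benjamini-Hochberg adjustment over 2720 regions. No collagen region differed by the IDR, beside 1.69% of all regions higher and 0.551% lower with the IDR of HIF-2α. None differed by the DBD, beside 0.846% higher and 2.06% lower with the DBD of HIF-2α. At an unadjusted p under 0.05 no collagen region passed either, against 456 and 453 regions of all. The largest IDR differences were at the upstream region of COL1A1 (log2 difference −0.70, SE 0.359, adjusted p = 0.312), the COL5A1 region nearer the gene (−0.65, SE 0.342, adjusted p = 0.324) and intron 37 of COL27A1 (0.44, SE 0.359, adjusted p = 0.563). The largest DBD differences were at COL8A1 (0.42, SE 0.344, adjusted p = 0.595), the distal COL5A1 region (0.27, SE 0.332, adjusted p = 0.760) and the stronger PFKFB4 region in the COL7A1 window (−0.26, SE 0.340, adjusted p = 0.791). A negative value means less signal with the part of HIF-2α.

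Fold divides by a local background taken from the IgG library, so the number of fragments at the summit was also recovered from the deposited values and divided by the genome mean of the library (summit coverage). On this scale the calls differed, and the outcome depends on the measure. At the distal COL5A1 region, the summit coverage was 526, 1248 and 556 times the genome mean in HIF-2α and 358, 902 and 380 in HIF-1α/2α. It was 498, 949 and 420 in HIF-2α/1α and 218, 612 and 331 for HIF-1α. KIN gave 87.2, 323 and 172, and WT replicate 2 gave 50.0. The ranges of the lines overlapped, and replicate 2 was the highest library of each line. Among libraries of the same replicate number the order was HIF-2α, HIF-2α/1α, HIF-1α/2α and HIF-1α, from high to low, for all 3 numbers.

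In the limma fit of log2 summit coverage over 2569 regions, the distal COL5A1 region was higher with the IDR of HIF-2α (log2 difference 0.63, SE 0.142, adjusted p = 0.00274) and with its DBD (0.60, SE 0.142, adjusted p = 0.00585). For the IDR, 3 of the 7 collagen regions passed. The other two were lower with the IDR of HIF-2α, namely the COL5A1 region nearer the gene (−0.42, SE 0.151, adjusted p = 0.0354) and the upstream COL1A1 region (−0.40, SE 0.150, adjusted p = 0.0447). The background was 20.6% of all regions higher and 17.3% lower for the IDR, and 13.2% higher and 12.3% lower for the DBD. The shares of collagen regions, 1 higher and 2 lower of 7 for the IDR and 1 higher of 7 for the DBD, rest on few regions. The distal COL5A1 region kept both calls whichever exogenous library was left out (0.55 to 0.71 for the IDR and 0.52 to 0.69 for the DBD). The COL1A1 call was lost without any of 8 of the 12 libraries and that of the nearer COL5A1 region without any of 8. At the upstream COL1A1 region the summit coverage was 75.9, 143 and 108 in HIF-1α, 87.9, 203 and 126 in HIF-2α/1α, 55.0, 114 and 63.1 in HIF-2α and 46.3, 106 and 95.8 in HIF-1α/2α, beside 52.9, 243 and 144 in KIN. At all 7 regions replicate 2 gave the highest coverage of every tagged line, and the fits were made on values centred within each library. KIN spanned the widest range at the COL1A1 region, whereas its folds were among the lowest.

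**Figure D5:**
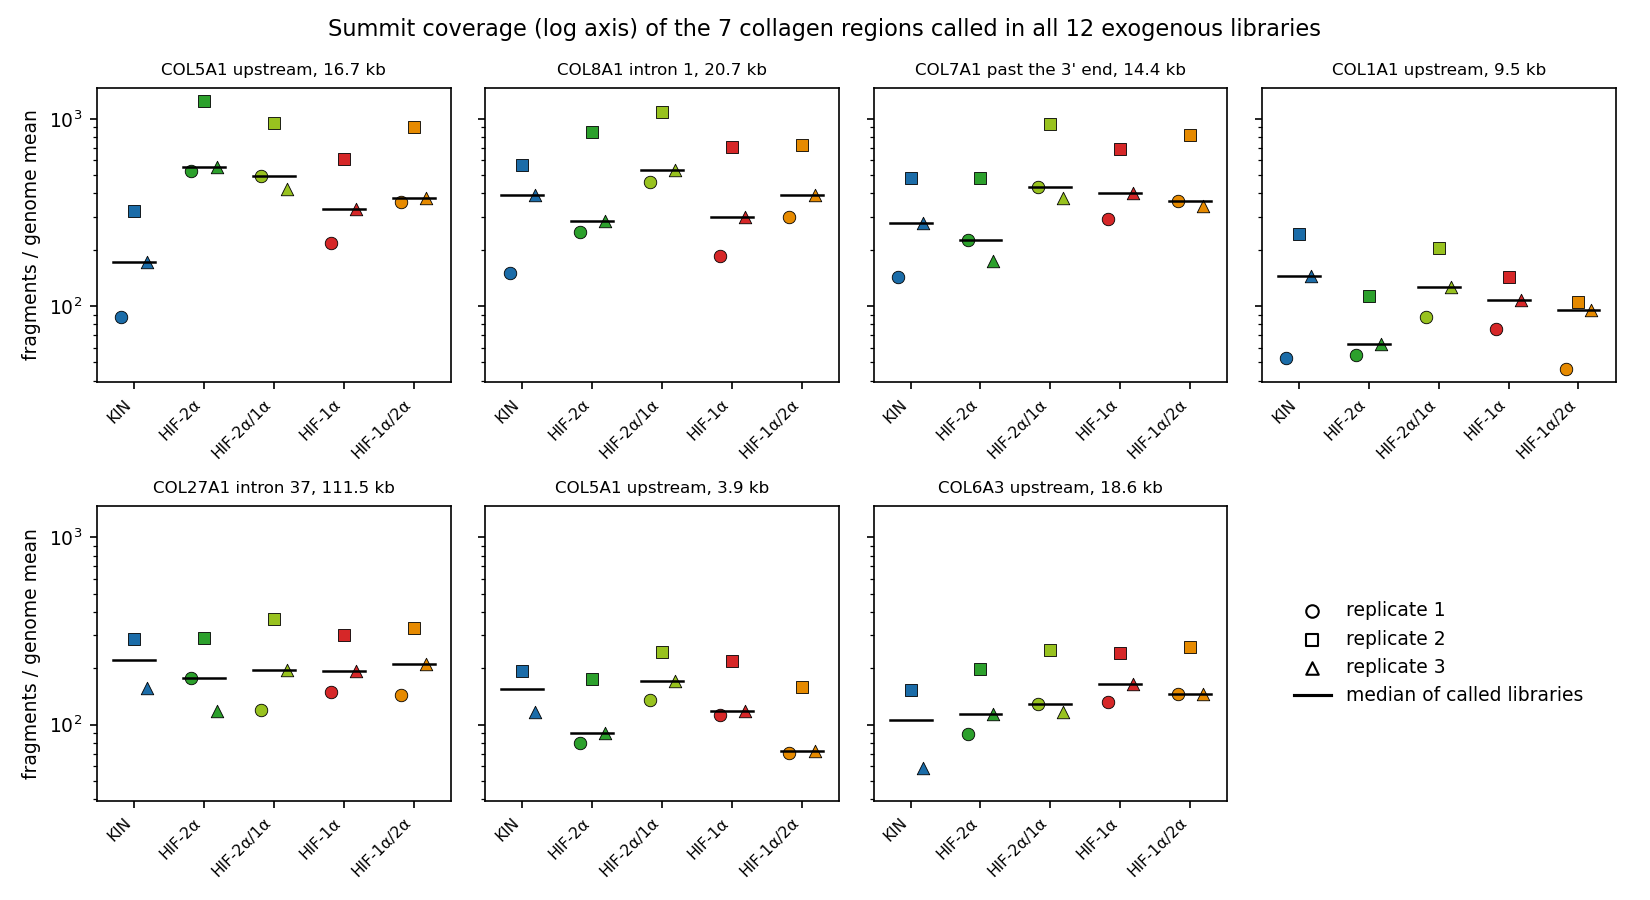
Summit coverage (vertical axis, fragments over the genome mean, log scale) of the 7 collagen regions called in all 12 exogenous libraries, 1 panel per region, with 1 point per library for each tagged line and a bar at the median of the libraries that called it. Replicate 2 was the highest library of every tagged line in all panels. At the distal COL5A1 region the HIF-2α points reach 1248. The HIF-1α points run from 218 to 612 and the KIN points from 87.2 to 323, so these 2 lines overlap.

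When regions called in at least 10 of the 12 exogenous libraries were fitted on the same scale, which added sites not called in every library, 20 collagen regions entered. The background was 12.2% of the 5638 regions higher and 13.3% lower for the IDR, and 7.4% higher and 11.1% lower for the DBD. Of the collagen regions 1 was higher and 2 were lower for the IDR, and 3 were higher and 2 lower for the DBD. The IDR calls of the upstream COL1A1 region (adjusted p = 0.0830) and of the nearer COL5A1 region (adjusted p = 0.0670) were lost in this fit. The distal COL5A1 region was again higher with the IDR (0.66) and the DBD (0.65) of HIF-2α. A region downstream of COL8A2 in the promoter of ADPRS, chr1:36089297-36090393, was lower with both, by the IDR (−0.70, adjusted p = 0.0163) and by the DBD (−0.90, adjusted p = 0.00430). Its coverage was 85.7, 252 and 122 in HIF-1α, 40.6, 131 and 78.6 in HIF-2α/1α, 46.3, 120 and 69.4 for HIF-1α/2α, and 63.4 in the 1 HIF-2α library that called it. The intron 2 region of COL18A1 from 45438792 was likewise lower with the IDR (−0.66, adjusted p = 0.0271) and the DBD (−0.85, adjusted p = 0.00782). HIF-2α replicates 1 and 3 lacked a call of both regions and did not enter their fits. The intron 1 region of COL27A1 (0.63, adjusted p = 0.0174) and the NT5DC1 region in the COL10A1 window (0.66, adjusted p = 0.0260) were higher with the DBD of HIF-2α. At COL10A1, HIF-2α/1α gave 97.0, 154 and 78.6, against 55.0, 72.7 and 31.6 in HIF-2α and 41.6, 57.3 and 54.0 in HIF-1α, and 29.2 and 74.0 in HIF-1α/2α replicates 1 and 2. HIF-2α/1α lay above all of these values, while those of HIF-2α, HIF-1α and HIF-1α/2α overlapped.

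The genes that act on collagens were counted in the same way, from lists set by function. All 18 genes of folding and modification had a tagged peak, beside 81.6% of all genes. Of the 18, 5 passed the test of tagged against WT, beside 5.42% of all genes tested. These were the prolyl hydroxylase gene P4HA1, the lysyl hydroxylase genes PLOD1, PLOD2 and PLOD3, and the glycosyltransferase gene COLGALT2, each in 15 of 15 tagged and 0 of 3 WT libraries. Of the 13 genes of processing and cross-linking all had a tagged peak and 1 passed, LOXL2, a lysyl oxidase. The 7 receptor genes all had a tagged peak and none passed, with ITGB1 in 15 tagged libraries and 1 WT library. Of the 9 degradation genes 6 had a tagged peak and none passed, with MMP2 in 15 tagged libraries and 1 WT library. The median number of tagged libraries was 14.5 for folding and modification, 12 for receptors, 10 for processing, 2 for degradation and 4.5 for the 44 collagen genes, beside 6 for all genes. These counts are descriptions, and the difference between the lists was not tested.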

How the data were processed

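Anti-V5 Cut&Run was analysed in 6 lines of 786-O cells with 3 libraries each. Per the labels and methods, the authors aligned reads to hg38 with Bowtie2 2.3.4.1, handled alignments with SAMtools 1.8, called peaks with MACS2 library by library, with the matched IgG sample as control and no pooling, and removed blacklisted regions with bedtools 2.28.0. The submitters' processing notes also name deepTools 3.5.1. IgG libraries entered only through these calls. The deposited lists give the fold enrichment over local background, the −log10 p-value and −log10 q-value at the summit and the offset of the summit, and each value belongs to its own list. Lists differ widely in length, for reasons that were not tested, and a missing call does not show absence. The series design names the replicates as biological. The limma p-values measure the spread between these libraries. Fisher's tests compare numbers of libraries with and without a call, and against WT they pool the libraries of all tagged lines.

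The lists state no read totals. Whole fragments at each summit were obtained by inverting the deposited fold and −log10 p-value, with the fold as pileup plus 1 over background plus 1 and the p-value as a Poisson tail, for peaks with a −log10 p-value up to 1000. All such peaks of every list (100%) were matched within 0.001, or within 0.01 for HIF-2α/1α replicate 2, whose pileup was scaled by 0.949. The lowest background, which is the genome mean, gave the depth as fragments per base.

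Genes were those of GENCODE release 44 on the same build. Consensus regions merged peaks that overlapped by at least 1 bp and were called in at least 2 libraries. Calls were compared with Fisher's exact test and log2 fold with limma 3.58.1 (R 4.3.3), in which IDR and DBD were additive factors, each with Benjamini-Hochberg adjustment over all genes or regions tested and a threshold of 0.05. Python 3.11.15, pandas 2.3.3, SciPy 1.17.1, pysam 0.24.0 and matplotlib 3.10.9 were used, and the tests were checked on simulated data. Regions were named when called in at least 12 tagged and at most 1 WT library. Also named were the genes without a tagged peak, the 3 regions of smallest p for the IDR and for the DBD, and the type IV pairs. COL23A1, COL9A3, COL8A2 and the regions called in at least 2 WT libraries were named after their values were seen. The members and lists were chosen with earlier results of these data known. The alternatives changed the window, the peak threshold, the list length, the merging of peaks, the measure and scaling of strength, the replicate block, and the libraries included. Fits of summit fragments beyond the change of measure were chosen after seeing the data. Positions are 1-based on hg38.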

Additional observations from a re-analysis of the deposited data

How the results depend on the processing

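Of 378 alternative values, 158 counts stayed within 1.5 times the main value, or shares within its 95% Wilson interval, and 20 moved. The 158 include counts that left out a library they did not use, which were fixed in advance and say nothing about stability. They also include the gene calls by IDR or DBD, which were 0 under every setting and say little about stability. For single genes and regions 171 kept their direction and side of the threshold, 26 lost the call, 3 gained one and 0 reversed. A site was found at 36 collagen genes, and at 35 to 36 with 1 library left out. Sites were found at 17 when every list longer than the shortest tagged list (3984 peaks) was cut to that length. This cut WT replicate 2 as well. WT replicates 1 and 3 kept 392 and 743 peaks, so tagged and WT lists still differed in length. The share of all genes with a site was not computed for the cut lists, so the fall to 17 is not read as particular to collagen genes. The genes called more often in tagged lines by Fisher's test numbered 2, and 0 to 2 with 1 library left out. They numbered 1 with the gene body alone. With the cut lists they numbered 1 (COL8A1, adjusted p = 0.0122, while COL1A1 lost its call at adjusted p = 0.0905). The regions numbered 3, and 0 to 4 with 1 library left out. Both counts were 0 without any of the WT libraries, where 2 WT libraries remain and no gene or region of the genome passed. The calls by IDR and by DBD in genes were 0 (0 to 0 with 1 library left out). In that test a gene could pass only if many genes shared the smallest p, so these counts say little about stability.

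No collagen region differed in fold by IDR or DBD, and this held with each library left out (0 to 0). With summit fragments 3 differed by IDR and 1 by DBD, and the calls over all regions rose from 61 to 972 and from 79 to 655. On that scale, leaving out 1 library gave 1 to 3 regions for IDR and 1 to 2 for DBD, and regions called in at least 10 of 12 libraries gave 5 of 20 for DBD, beside 1041 of all 5638 regions. The cause was not tested. The excess of HRE letters over flanks moved from 4.95 to 18.7 percentage points with 100 bp on each side of the summit, and was 1.65 for TACGTG alone and 9.34 at the median summit. These alternatives were computed for collagen regions alone. The order against all regions depended on the window. Within 50 bp of the summit 20.9% of collagen regions held an HRE, beside 24.1% of all regions. In the 151 bp window the shares were 40.7% and 35.3%. The promoter share was 14.3% at 500 bp and 22.0% at 2 kb, also for collagen regions alone.

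Replicate numbers were shared by the lines, but same-numbered libraries deviated together only weakly in fold (correlations of 0.0282 to 0.201, 8 of 18 over 0.1, with all 12 libraries closest to their own number). In summit fragments, the scale of the IDR and DBD calls, the correlations were 0.0403 to 0.359, 16 of 18 over 0.1. In fold the mean correlation was 0.0871 for the same number and −0.0435 for different numbers. Libraries of 1 number thus shared a part of their deviation, whose source was not tested. The main fits did not use the number as a block, so their p-values ignore this shared part. With the replicate number as a block, 0 collagen regions differed in fold by IDR and 0 by DBD, with 97 and 105 of all regions, and 3 and 1 differed in summit fragments, with 1084 and 789. The absence of a call was not read as absence of binding.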
